A study of Homo sapiens with 4 samples.

Results

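The genes described here build, modify and hold the extracellular matrix: 43 genes for matrix proteins, collagen-modifying enzymes, matrix proteases and their inhibitors, and integrins. They were chosen by name and matched to Ensembl gene IDs, and all 43 were found once each among the 62655 gene IDs counted. The cells were Hep G2, an established line from a human liver carcinoma that keeps many traits of hepatocytes. After plating at 150000 per ml they grew for 24 h, were then loaded with lipid in oleic acid medium for 24 h, and were transfected. One group received an oligonucleotide mimic of LysTTT-5'tRF, the 5' part of the tRNA that carries lysine and has the anticodon TTT, and the other a negative control oligonucleotide. RNA was taken 24 h after transfection, with 2 libraries in each group, so both groups were lipid-loaded and transfected. The comparison asked which matrix and integrin transcripts the added fragment changed in such cells. Gene counts summed to 15430539 and 18961222 with the mimic and to 16793484 and 15970530 with the control. The labels do not say whether the 2 libraries of a group came from separate cultures, so the spread behind the p-values is that between 2 libraries and may be technical.

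Cells lay down a basement membrane of laminins, type IV collagen, nidogens and heparan sulfate proteoglycans, while fibronectin and fibrillar collagens form the interstitial matrix. Collagen chains are hydroxylated on proline and lysine in the endoplasmic reticulum, folded with the help of a chaperone, trimmed outside the cell and crosslinked by lysyl oxidases. Integrins are pairs of an alpha and a beta chain that bind these proteins from the cell surface. In liver, hepatocytes are known for secreting plasma fibronectin, and stellate cells for making most of the fibrillar collagen of a scar.

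PLOD2 was the gene of this group that passed the test. It encodes lysyl hydroxylase 2, which hydroxylates lysines in the telopeptides of collagen, the step that sets up stable crosslinks. Its level was 1036 and 1062 TMM-scaled counts per 1000000 (CPM) in mimic libraries 1 and 2, and 879 and 830 CPM in control libraries 1 and 2. Both mimic libraries lay above both control libraries. PLOD2 rose 1.23-fold, with means ± SD of 1049 ± 18.4 CPM under the mimic and 854 ± 35.0 CPM under the control (n = 2 each). On the log2 scale the change was 0.30 (SE 0.04, 95% interval 0.21 to 0.38), and the p-value adjusted by Benjamini-Hochberg over the 14464 genes tested with edgeR's quasi-likelihood method was 0.00104; every adjusted p given for edgeR is of that kind, over the genes of its own fit. PLOD2 (ENSG00000152952) lies on chromosome 3 from 146069440 to 146163653 of GRCh38, is protein-coding, and shares no exon sequence with another annotated gene on either strand. Its call held in 11 of 12 other settings, including each library left out in turn (log2 fold change 0.26 to 0.34). A fit without 1 library leaves a group with a single library, which is then assumed to vary like the pair of the other group, so the spread between libraries comes from that pair alone. It was lost with no filter on low counts (log2 fold change 0.29, edgeR adjusted p = 0.754), where edgeR called 0 genes of the whole table, with 1514 at an unadjusted p under 0.05, and limma voom with the filter called 50.

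The other lysyl hydroxylases, PLOD1 and PLOD3, did not pass the test. The 250 bases before the RefSeq start of each of the 3 genes are shown to compare the changed gene with its paralogs, from GRCh38.p14, 5′ to 3′ on the strand of the gene. All 3 windows lie inside the annotated span of their gene, which reaches further upstream, so distances hold for the RefSeq start used. Capitals mark the core of the hypoxia response element, ACGTG or GCGTG on either strand, since PLOD2 is known as a target of hypoxia-inducible factor.
PLOD2, minus strand, chr3:146161185-146161434: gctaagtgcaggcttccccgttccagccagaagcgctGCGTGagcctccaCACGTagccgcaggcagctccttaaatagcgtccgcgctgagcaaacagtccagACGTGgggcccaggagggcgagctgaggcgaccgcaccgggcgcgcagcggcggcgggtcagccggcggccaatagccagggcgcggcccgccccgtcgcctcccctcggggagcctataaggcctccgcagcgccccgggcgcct
PLOD1, plus strand, chr1:11934467-11934716: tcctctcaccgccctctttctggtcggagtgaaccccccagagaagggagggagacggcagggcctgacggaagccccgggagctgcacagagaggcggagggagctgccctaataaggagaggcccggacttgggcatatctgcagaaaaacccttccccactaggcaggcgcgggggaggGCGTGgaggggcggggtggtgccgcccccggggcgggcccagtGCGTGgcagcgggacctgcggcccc
PLOD3, minus strand, chr7:101217582-101217831: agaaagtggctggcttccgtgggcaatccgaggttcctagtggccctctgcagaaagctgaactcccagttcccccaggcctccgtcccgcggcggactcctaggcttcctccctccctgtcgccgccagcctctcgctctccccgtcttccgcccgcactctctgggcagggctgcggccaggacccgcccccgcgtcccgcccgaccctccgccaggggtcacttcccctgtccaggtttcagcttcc
The PLOD2 stretch held 3 matches, starting 213, 200 and 146 bases before the RefSeq start used. PLOD1 held 2, at 68 and 25 bases before it, and PLOD3 held 0. Such letters are common: 43.1% of 27305 RefSeq promoters held at least 1 match in the same window. Of the 34 genes of this group with a RefSeq promoter 12 did, or 35.3%. Other collagen-modifying genes with matches were P4HA1 with 1 (log2 fold change 0.00) and LOX with 4 (-0.20), and neither passed the test. These letters are a description of the sequence and not evidence of a bound factor.

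Of the 43 genes, 37 had enough reads to be tested, PLOD2 was called higher, and none was called lower. Over all 14464 genes tested 0.346% were called, 0.277% higher and 0.0691% lower. The median log2 fold change of the 37 was 0.00, the same as that of all genes tested, with 20 above 0 and 17 below. At an unadjusted p under 0.05 there were 11 of the 37, or 29.7%, of which 8 were higher and 3 lower with the mimic. Over all genes tested the share was 9.43%, with 5.06% higher and 4.37% lower, and it was 11.5% over those with a mean of at least 10 CPM, of which this group has 34. That number depended on the method: it was 5 when libraries were scaled by their totals alone and 4 in DESeq2 (Wald test). It was 6 of 34 with a filter at 10 CPM and 7 of 43 with no filter on low counts. In the whole table these 4 settings held 1393, 561, 983 and 1514 genes with such a p, in that order. Genes fitted numbered 14464 with the totals and in DESeq2, 8868 at 10 CPM and 30342 with no filter, and DESeq2 adjusted p over 5210 of its genes. In the other settings with all 4 libraries the number in the group was 10 to 13. The values of mimic and control did not overlap in 19 of the 37 genes, 11 higher and 8 lower, against 39.1% of all genes tested, 19.8% higher and 19.3% lower. Half-widths of the 95% intervals had a median of 0.12 on the log2 scale.

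**Figure D1:**
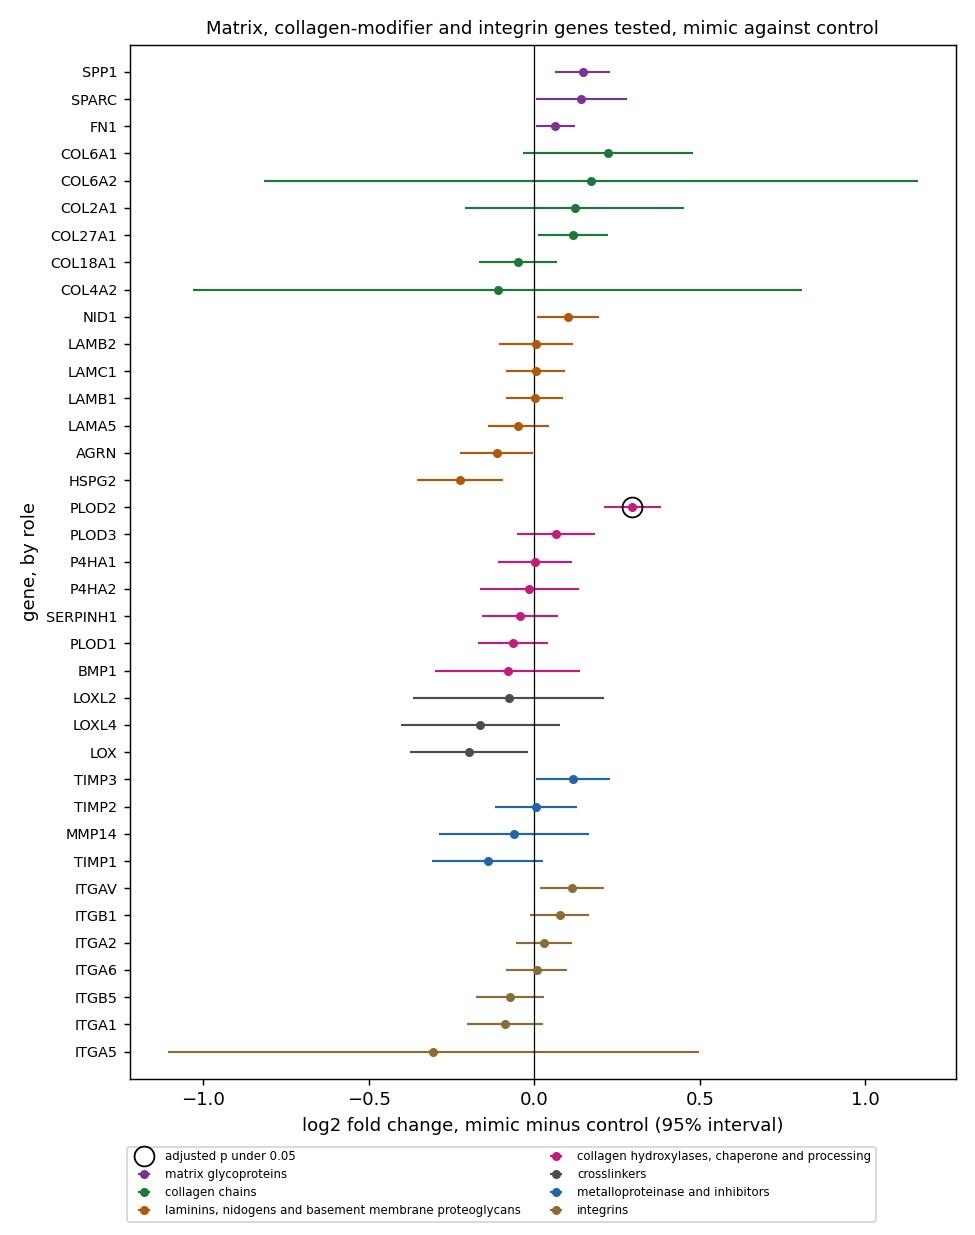
Log2 fold change of mimic minus control for the 37 tested genes, grouped by role, with 95% intervals from edgeR as horizontal bars. PLOD2, ringed, lies at 0.30 and is the gene with an adjusted p under 0.05, while most intervals cross the line at 0 and those of COL6A2, COL4A2 and ITGA5, with few reads, are widest.

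The share of PLOD2 among the 3 lysyl hydroxylases was higher in both mimic libraries, a description that rests on the same PLOD2 values as the call. Compared per kilobase of merged exons (RPKM), PLOD2 made up 63.3% and 63.0% of the summed level of the 3 genes in the mimic libraries and 59.0% and 56.8% in the control libraries. PLOD1, which hydroxylates lysines of the collagen helix, stood at 275 and 289 CPM with the mimic and 283 and 307 CPM with the control, so the groups overlapped (log2 fold change -0.06, 95% interval -0.17 to 0.04). PLOD3, which also adds sugars to hydroxylysine, stood at 152 and 154 CPM with the mimic and 152 and 140 CPM with the control. Its log2 fold change was 0.06, with a 95% interval from -0.05 to 0.18. A difference between PLOD2 and its paralogs in their response was not tested.

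**Figure D2:**
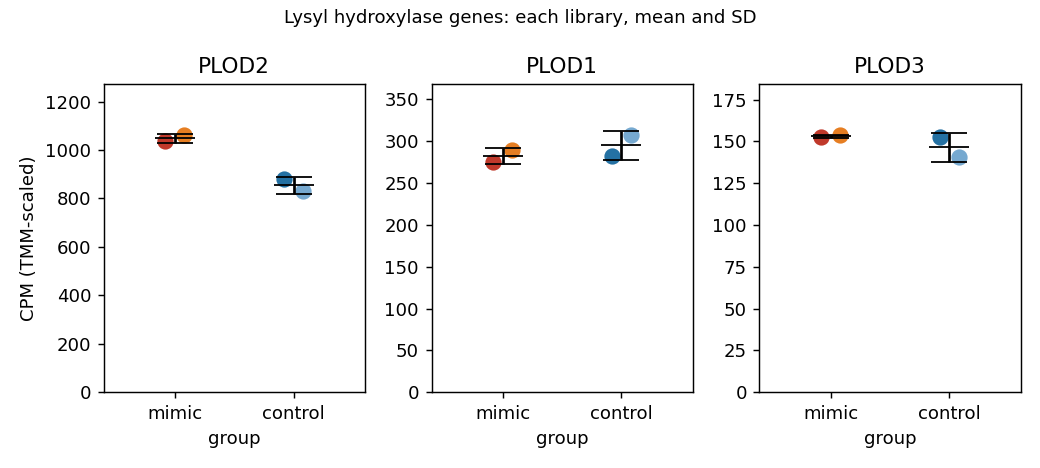
TMM-scaled CPM of PLOD2, PLOD1 and PLOD3 in each library (points), with the group mean and SD (n = 2) as bars, each axis starting at 0. The PLOD2 points with the mimic, 1036 and 1062 CPM, lie above the control points, 879 and 830 CPM, while the groups lie close together for PLOD1 and PLOD3.

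The prolyl hydroxylases and the other collagen-processing genes did not pass. P4HA1, a catalytic subunit of collagen prolyl 4-hydroxylase, stood at 209 and 230 CPM with the mimic and 216 and 222 CPM with the control. Its groups overlapped, with a log2 fold change of 0.00 (95% interval -0.11 to 0.11). P4HA2, another such subunit, was at -0.01 (95% interval -0.16 to 0.13), and P4HA3 was not tested, with 3 reads in control library 1 and none elsewhere. SERPINH1, which encodes the collagen chaperone HSP47, had a log2 fold change of -0.04 and BMP1, the protease that trims procollagen, one of -0.08. Their intervals ran from -0.16 to 0.07 and from -0.30 to 0.14. In total 1 of the 7 tested genes of collagen modification and processing rose, 0 fell and 6 did not pass.

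The 3 lysyl oxidases, which oxidise lysine and hydroxylysine to start crosslinks, all had fold changes below 0, and none passed. LOX stood at 37.7 and 34.4 CPM in the mimic libraries and at 41.9 and 40.5 CPM in the control libraries. Both mimic libraries thus lay below both control libraries, with a log2 fold change of -0.20 (95% interval -0.38 to -0.02; edgeR adjusted p = 0.479), which was -0.13 without mimic library 2. LOXL4 stood at 19.1 and 18.8 CPM with the mimic and 22.7 and 19.6 CPM with the control, again without overlap (log2 fold change -0.16, 95% interval -0.40 to 0.08), and without control library 1 it was -0.05. LOXL2 overlapped between groups, between 12.4 and 15.9 CPM in the 4 libraries, with a log2 fold change of -0.08. An antisense or opposite-strand gene covers 2.49% of the LOX exon sequence, 4.16% of LOXL4 and 3.12% of LOXL2, and whether the counting used strand is not given in the sources used here.

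All 3 matrix glycoproteins had higher values in both mimic libraries than in both control libraries, and none passed the test. Of all genes tested 19.8% lay higher with the mimic in this way. FN1, fibronectin, had the highest count of any gene tested, with 2.58% to 2.69% of all reads assigned to genes. It stood at 26571 and 27139 CPM with the mimic and 25819 and 25568 CPM with the control. The difference was small, a log2 fold change of 0.06 with a 95% interval from 0.00 to 0.12 (edgeR adjusted p = 0.489). SPP1, osteopontin, a secreted phosphoprotein that binds integrins, stood at 1513 and 1447 CPM with the mimic and 1366 and 1309 CPM with the control. Its log2 fold change of 0.15 (95% interval 0.06 to 0.23) did not pass (edgeR adjusted p = 0.145), but it did with control library 2 as the single control (0.18, edgeR adjusted p = 0.00519). SPARC, a collagen-binding glycoprotein, stood at 83.5 and 79.4 CPM with the mimic and 71.9 and 75.6 CPM with the control (log2 fold change 0.14, 95% interval 0.00 to 0.28). Of the SPARC exon sequence 7.89% lies opposite the antisense gene CLMAT3.

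None of the 6 tested collagen chains of the group passed, and a pair of them held most of its collagen signal. COL27A1, a fibrillar collagen, and COL18A1, the basement membrane collagen from which endostatin is cut, together made up 89.7% to 92.1% of the summed RPKM of the group's 8 collagen chains. COL9A3, a collagen outside the group, had a higher mean level, at 58.6 RPKM against 38.3 RPKM for COL27A1 and 27.4 RPKM for COL18A1. COL27A1 stood at 561 and 552 CPM with the mimic and 548 and 479 CPM with the control. Both mimic libraries lay above both controls, but control library 1 lay close to mimic library 2, and control library 2 was the low one. The log2 fold change was 0.12 (95% interval 0.01 to 0.22), and without control library 2 it was 0.02. Without control library 1 it was 0.22 and passed (edgeR adjusted p = 0.00223), with the low control library alone against the mimic pair, which gives the spread. COL18A1 overlapped between groups, at 215 and 245 CPM with the mimic and 232 and 244 CPM with the control (log2 fold change -0.05, 95% interval -0.17 to 0.07; 0.04 without mimic library 1), and 16.4% of its exon sequence lies opposite SLC19A1.

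The other collagen chains of the group were low. COL6A1 was measured at 27.0 and 25.3 CPM with the mimic and 26.0 and 18.6 CPM with the control. Its log2 fold change was 0.22 with a 95% interval from -0.03 to 0.48, and it too passed with control library 2, the low one, as the single control. COL2A1, the cartilage collagen, lay between 10.5 and 14.3 CPM. COL6A2, the partner of COL6A1, had only 9 to 33 reads in a library, and COL4A2 13 to 35. COL4A1, the chain that pairs with COL4A2 in the main type IV collagen, had 1, 0, 4 and 0 reads, and COL5A1 a single read in all. Neither was tested, and no difference in them was detectable at this depth.

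None of the 7 tested basement membrane genes passed. The laminin chains had log2 fold changes between -0.05 and 0.00, and 3 other basement membrane genes differed slightly in opposite directions without passing. LAMB1, a laminin beta chain, stood at 685 and 703 CPM with the mimic and again 685 and 703 CPM with the control (log2 fold change 0.00, 95% interval -0.08 to 0.09). The intervals of LAMC1 (gamma 1), LAMB2 (beta 2) and LAMA5 (alpha 5) ran from -0.09 to 0.09, from -0.11 to 0.12 and from -0.14 to 0.04. LAMA5 did not overlap between groups, by a margin of under 1 CPM. Of the alpha chains in the group LAMA5 stood at 33.4 to 35.7 RPKM, and LAMA1 had 2 to 13 reads in a library and was not tested. NID1, nidogen 1, which bridges laminin and type IV collagen, stood at 459 and 465 CPM with the mimic and 445 and 416 CPM with the control. It did not overlap between groups, with a log2 fold change of 0.10 (95% interval 0.01 to 0.20), and without control library 2 it was 0.06. NID2 had 2 to 5 reads in a library.

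HSPG2, which encodes perlecan, a large heparan sulfate proteoglycan of basement membranes, had the lowest p among the genes of the group with a negative fold change. Its values were 186 and 205 CPM with the mimic and 211 and 245 CPM with the control. The groups did not overlap, but mimic library 2 and control library 1 lay close together and control library 2 was highest. Means were 195 ± 13.5 and 228 ± 23.8 CPM (mean ± SD, n = 2 each), a log2 fold change of -0.22 with a 95% interval from -0.35 to -0.10 (edgeR adjusted p = 0.161). It passed without mimic library 2 (-0.30, edgeR adjusted p = 0.00897) and without control library 1 (-0.33, edgeR adjusted p = 9.43e-06), each time with 1 library in that group and the spread taken from the other. Without mimic library 1 it was -0.16 and without control library 2 it was -0.11, and neither passed. Of the HSPG2 exon sequence 11.7% lies opposite LDLRAD2. AGRN, agrin, a related proteoglycan, stood at 306 and 341 CPM with the mimic and 338 and 363 CPM with the control. Mimic library 2 exceeded control library 1, so the groups overlapped (log2 fold change -0.11, 95% interval -0.22 to -0.0038), and without mimic library 1 it was -0.04 and without control library 2 -0.06.

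The tissue inhibitors of metalloproteinases differed in direction, and none of the 4 genes of this role passed. TIMP3, which stays bound to the matrix, stood at 234 and 261 CPM with the mimic and 232 and 225 CPM with the control. The groups did not overlap, but mimic library 1 lay close to control library 1, and without mimic library 2 the log2 fold change was 0.03 rather than 0.12. TIMP1, a soluble inhibitor, stood at 44.0 and 46.8 CPM with the mimic and 47.6 and 52.8 CPM with the control. It did not overlap between groups either, on the lower side (log2 fold change -0.14, 95% interval -0.31 to 0.03). Without control library 2 it was -0.06 and without control library 1 it was -0.22. TIMP2 (0.00, 95% interval -0.12 to 0.13) and MMP14, the membrane-bound protease that activates MMP2 (-0.06, 95% interval -0.29 to 0.17), overlapped between groups.

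Among integrins the collagen, laminin and vitronectin receptors were well expressed and the classical fibronectin receptor chain had few reads. ITGB1, the beta chain shared by most of these receptors, had 89.6 to 96.5 RPKM. ITGA2 of the collagen receptor had 85.5 to 88.4 RPKM, ITGAV of the vitronectin and fibronectin receptors 62.6 to 72.0 RPKM, and ITGA6 of the laminin receptor 61.9 to 63.1 RPKM. ITGB5, a partner of ITGAV, had 44.5 to 49.7 RPKM and ITGA1, another collagen receptor chain, 7.57 to 8.40 RPKM. ITGA5, which with ITGB1 forms the main fibronectin receptor, had 0.129 to 0.303 RPKM beside the very high FN1 level. ITGB3, the other well-known partner of ITGAV, had 1 to 7 reads in a library and was not tested, and 51.6% of its exon sequence is shared with another annotated gene on the same strand.

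None of the 7 tested integrin chains passed. ITGAV stood at 549 and 591 CPM with the mimic and 514 and 541 CPM with the control. The groups did not overlap, with a log2 fold change of 0.11 (95% interval 0.02 to 0.21; edgeR adjusted p = 0.424), and without mimic library 2 it was 0.06. ITGB1 stood at 580 and 580 CPM with the mimic and 561 and 539 CPM with the control, a log2 fold change of 0.08 with a 95% interval from -0.01 to 0.17 and a value of 0.05 without control library 2. ITGA2 stood at 699 and 697 CPM with the mimic and 692 and 676 CPM with the control (0.03, 95% interval -0.06 to 0.11). ITGB5 and ITGA1 had log2 fold changes of -0.07 and -0.09, and ITGA6 one of 0.01 with a 95% interval from -0.08 to 0.10.

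**Figure D3:**
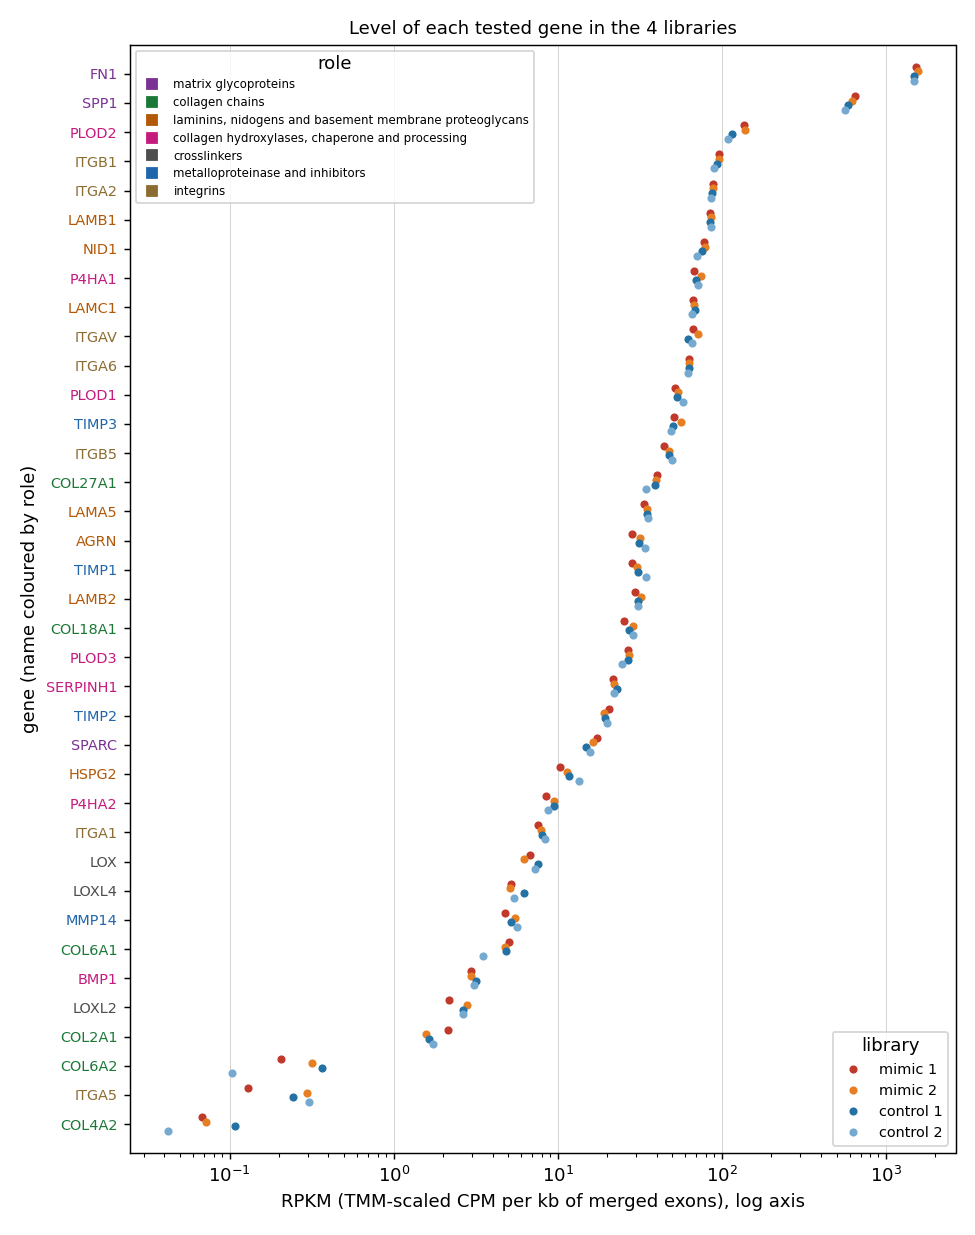
Level of the 37 tested genes in each library as RPKM on a log axis, ordered by mean, with gene names coloured by role. FN1 and SPP1 stand at the top and PLOD2 next, most laminin and integrin chains lie between 30 and 100 RPKM, and COL6A2, ITGA5 and COL4A2 lie under 1 RPKM in every library.

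Levels between genes depend on the length used. RPKM here rests on the merged exons of all annotated transcripts of a gene, which lowers values of genes with many alternative exons. With the longest coding transcript instead, the mean over the 4 libraries was 2951 in place of 1517 RPKM for FN1, 255 in place of 124 for PLOD2, and 149 in place of 94.0 for ITGB1. FN1, SPP1 and PLOD2 were the top 3 genes of the group with either length.

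Several of the values above rest on 1 library. Of the 11 genes with an unadjusted p under 0.05, 8 had control library 2 as the control more distant from the mimic libraries, and 5 had mimic library 1 as the mimic library more distant from the controls. In any pair 1 library is the more distant, and no such count was made over all genes tested. Without control library 1 the log2 fold change was 0.34 for PLOD2, -0.33 for HSPG2, 0.18 for SPP1 and 0.22 for COL27A1. Without control library 2 these were 0.26, -0.11, 0.12 and 0.02 in that order. Without mimic library 1 they were 0.31, -0.16, 0.11 and 0.10, and without mimic library 2 they were 0.28, -0.30, 0.18 and 0.13. Each such fit has a single library in 1 group and takes the spread from the other pair.

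**Figure D4:**
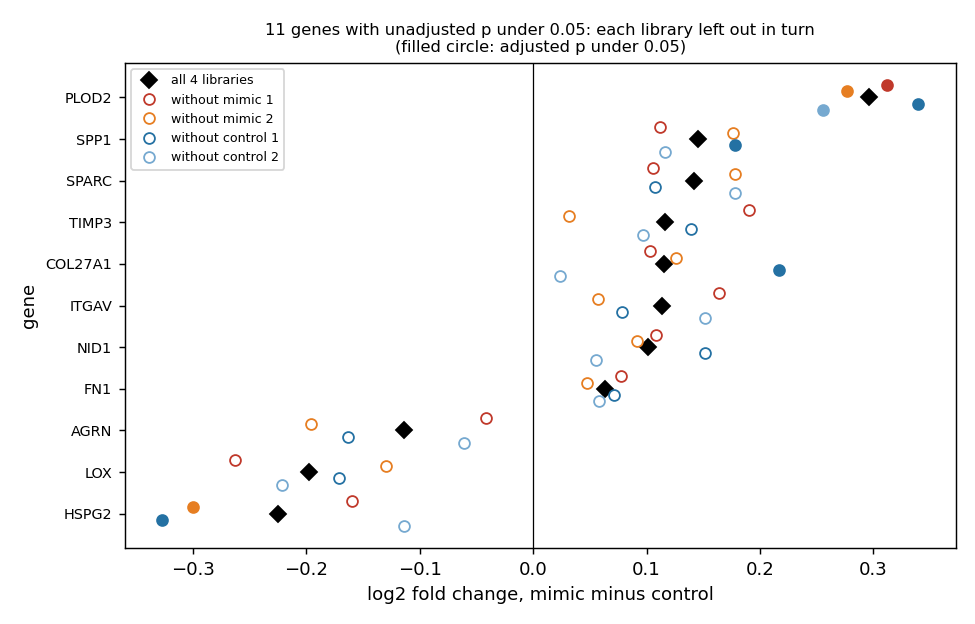
Log2 fold change of the 11 genes with an unadjusted p under 0.05, with all 4 libraries (diamonds) and with each library left out in turn (circles, filled where the adjusted p was under 0.05). PLOD2 stays between 0.26 and 0.34 with every circle filled, whereas HSPG2 ranges from -0.33 to -0.11 and COL27A1 from 0.02 to 0.22.

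Other genes of the same pathways, from 6 further lists, held no called gene. None of 11 tested other collagens, 24 other matrix and matricellular proteins, 16 other genes of collagen and matrix processing, 17 other proteases and inhibitors, 7 other integrin chains or 23 adhesion proteins on the cytoplasmic side of integrins passed edgeR's test. At an unadjusted p under 0.05 they held 3, 5, 2, 1, 0 and 5 genes in that order. Over all 14464 genes tested 9.43% had such a p and 0.346% were called, so few or no calls are usual in lists this short. The median log2 fold changes of the lists were 0.03, 0.02, -0.04, 0.01, -0.14 and -0.02.

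By CPM, of the other collagens COL9A3 was most abundant, at 276 and 287 CPM with the mimic and 289 and 283 CPM with the control, and COL6A3 had the lowest p (log2 fold change 0.44, SE 0.18). P4HB, the shared beta subunit of prolyl 4-hydroxylase, stood at 1143 and 1173 CPM with the mimic and 1151 and 1158 CPM with the control, while the collagen 3-hydroxylation cofactor CRTAP had the lowest p of its list (log2 fold change -0.16, SE 0.07). Among the matricellular proteins CCN2, connective tissue growth factor, had the lowest p, at 422 and 379 CPM with the mimic and 462 and 441 CPM with the control (log2 fold change -0.18; edgeR adjusted p = 0.185). The glypican GPC3 was the most abundant of them, with a log2 fold change of 0.02. Of the other integrin chains ITGB4 was most abundant at 17.9 to 20.5 CPM, and ITGA10 had the lowest p (log2 fold change -0.21). Among cytoplasmic adhesion proteins the actin crosslinker FLNA was most abundant (log2 fold change -0.10), and TNS3, a tensin that binds integrin tails, had the lowest p (log2 fold change 0.15), with the groups apart in both but in opposite directions.

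The cells carried the markers of their label. All 10 markers of hepatocytes and hepatoma were tested, with a summed level of 51137 and 50761 CPM with the mimic and 49873 and 47997 CPM with the control. Of these albumin (ALB) was called higher, as a gene outside the matrix group (log2 fold change 0.23; edgeR adjusted p = 0.0109). The 10 log2 fold changes ran from -0.05 to 0.26 with a median of 0.03, 8 above 0 and 2 below. The largest was that of TTR, which did not pass. At an unadjusted p under 0.05 in edgeR there were 4 of the 10, all higher with the mimic, against 9.43% of all genes tested. Any link of the ALB rise to the values of FN1 and SPP1 was not tested. The 12 markers of stellate cells and fibroblasts summed to 36.4 and 36.3 CPM with the mimic and 30.9 and 35.5 CPM with the control, with COL1A2, DCN and LUM at 0 reads in every library. The 8 endothelial markers summed to 10.9 to 13.4 CPM, with KDR, TEK and CLEC4G at 0, and the 8 markers of blood cells to 0.124 to 0.523 CPM, with PTPRC, CD163, MARCO, CD3E and HBB at 0. Of 5 cholangiocyte markers 3 were tested and summed levels were 931 and 962 CPM with the mimic and 951 and 1035 CPM with the control. The log2 fold changes were -0.24 for KRT19 (edgeR adjusted p = 0.0688), 0.06 for EPCAM and 0.04 for SOX9, none of which passed, and KRT7 was at 0. As in any bulk sample, fewer cells of a kind and less RNA per cell cannot be told apart.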

How the data were processed

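RNA of 4 poly(A)-selected libraries of Hep G2 cells was sequenced with a stranded kit, per the labels' protocols. The authors deposited raw counts of reads per Ensembl gene; the submitters' processing notes name HTSeq, STAR, Bowtie2 and FastQC and the build GRCh38.p14, without versions, and the annotation release and strand setting are not stated. Control columns carry the series' abbreviation for its negative control; the prefix of the other 2 was taken as the mimic, as the only other treatment. Library numbers are those of the columns and differ from the controls' sample titles (3 and 4). Entries naming no gene (5, holding 23.1% to 24.1% of each column) were left out.

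Counts were fitted with edgeR 4.0.16 in R 4.3.3 (filterByExpr, minimum count 10 and total 15; TMM; glmQLFit with legacy = FALSE; glmQLFTest), with Benjamini-Hochberg adjustment over all genes tested and a threshold of 0.05. The fit was tested on simulated data. With 2 libraries against 2 an exact permutation test cannot go below 0.333, so none was used. Alternatives were DESeq2 1.42.0, limma 3.58.1 voom, 2 other scalings, 2 other filters, legacy = TRUE, a block and each library left out. RPKM used merged exons of GENCODE on GRCh38; promoters came from RefSeq (GRCh38.p14), which held 34 of the 43 genes.

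Members and lists were chosen with earlier results of these data known. Genes of the group given in every library were those called and those with an unadjusted p under 0.05. In each role the 2 highest per length and the lowest p were included too. Markers of cell types were given as sums, with fold changes for some. From the further pathway lists the most abundant gene and the lowest p were chosen, some given by a fold change or range only. One gene so chosen is not reported here. PLOD1, PLOD3 and COL6A1 were added after their values were seen.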

Additional observations from a re-analysis of the deposited data

How the results depend on the processing

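The number of genes called over the whole table was 50. It was 30 in DESeq2, 0 in edgeR with no filter on low counts (1514 genes at an unadjusted p under 0.05, and 50 called by limma voom with the filter), 306 with a block for the number in the column names, and 20 to 424 with 1 library left out. Of the matrix, collagen-modifier and integrin genes 1 was called; this was 0 with no filter (7 at an unadjusted p under 0.05), 3 with the block (PLOD2, HSPG2 and SPP1) and 1 to 5 with 1 library left out. Genes whose groups did not overlap numbered 24 to 32, of 37 or 38 tested, with 1 library left out, where fewer libraries make a gap more likely. Otherwise they numbered 17 to 19, of 37 tested, or of 34 at 10 CPM and 43 with no filter. The share over all genes was computed for the main fit only, so these counts cannot be read against it. In the fits with 1 library left out the single library of a group is assumed to vary like the pair of the other. The median log2 fold change of the group went from -0.066 to 0.033 with 1 library left out. The titles number the samples 1 to 4, so only the column numbers could pair libraries. Same-numbered libraries had a correlation of deviations of 0.038. With 2 libraries in a group the opposite pairing must give the mirror value, -0.038, so this cannot decide whether libraries were paired. The labels state no pairing, and the main fit used none. The remaining settings (2 other scalings, limma voom, legacy = TRUE and a filter at 10 CPM) kept the number of called genes of the group at 1, PLOD2. Numbers called rest on unlike totals: DESeq2 adjusted p over 5210 genes, the main fit over 14464 and the fit with no filter over 30342.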
